A study of Mus musculus with 12 samples.

Results

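The solute carriers expressed in mouse liver were taken as the genes with a symbol of the form Slc, family number, a, member number, and were chosen by their level, a mean of at least 5 CPM (counts scaled to the file total) over all 12 libraries. Of 24062 genes listed, 331 had such a symbol and 161 reached the threshold. Slc10a1, Slc27a2, Slc27a5, Slc40a1, Slc1a2, Slc2a2 and Slc25a20 were left out by the same rule, which left 154 carriers. By substrate these were 25 amino acid carriers, 30 mitochondrial carriers, 23 ion carriers, 23 metal carriers, 13 sugar and nucleotide sugar carriers, 3 nucleoside carriers, 25 carriers of organic ions and carboxylates, and 12 carriers of vitamins, choline and lipids. The mean level chose the members, so levels are given as a description with no test. Just inside the threshold lay Slc6a18 at 5.02, Slc25a26 at 5.06 and Slc26a10 at 5.16 mean CPM of the file total. Just outside it lay Slc25a40 at 4.999, Slc45a4 at 4.59 and Slc10a3 at 4.48. In 10 members the mean fell under the threshold once the highest of the 4 groups was left out, so a high level in 1 group helped to choose them. Of those described here these were Slc25a30, Slc22a26 and Slc6a18, whose differences are given as a description with no test. At or above the threshold in every group were 135 members.

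Liver RNA came from male mice aged 14 weeks on a mixed 129SvEV-C57BL/6 background, and all of them carried floxed alleles of Nr5a2, the gene of the nuclear receptor LRH-1. The knockouts had received AAV8-Cre, a virus that carries the Cre recombinase into adult liver. The labels do not name the promoter that drives Cre. The controls are labelled as floxed mice without Cre, and the design text adds that controls received AAV8-eGFP. The 4 groups were knockouts on standard diet (SD knockouts, n = 3), controls on standard diet (SD controls, n = 3), knockouts on the high-fat diet D12492 (HFD knockouts, n = 2) and controls on that diet (HFD controls, n = 4), each diet fed for 6 weeks.

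Solute carriers are membrane proteins that let small molecules cross a membrane in which they would not dissolve. Some exchange one substrate for another, and others draw on the sodium, proton or voltage gradient. Hepatocytes use those of the blood-facing membrane to take up amino acids, organic ions, vitamins and metals, those of the inner mitochondrial membrane to pass nucleotides, phosphate and metabolic intermediates, and those of the Golgi to bring in sugars for glycoproteins. LRH-1 is a transcription factor that binds DNA as a single molecule and is known in liver for its control of bile acid, phospholipid and one-carbon metabolism.

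The HFD libraries held 7463792 to 10875478 counts and the SD libraries 2371167 to 3404570. Nothing in the labels says outright that each library is 1 mouse, and p-values then speak only of the spread among these libraries. The 154 carriers took 1.37% to 1.42% of all counts in SD knockouts, 1.31% to 1.44% in SD controls, 1.21% to 1.35% in HFD knockouts and 1.32% to 1.47% in HFD controls. Nr5a2 itself was measured at 94.7 to 100.1 CPM in SD knockouts against 74.8 to 85.8 CPM in SD controls (adjusted p = 0.288 by edgeR's quasi-likelihood test), and at 69.1 to 84.5 CPM in HFD knockouts against 64.3 to 77.0 CPM in HFD controls (adjusted p = 0.719). The count of the whole gene therefore did not check the labels, since the exons that Cre removes are not named in the labels, and the groups are named knockout-labelled from here on. Nr0b2, a well-known target gene of LRH-1, had 0 counts in all 3 SD knockout-labelled livers against 10.5 to 15.3 CPM in SD controls, and 0 to 0.335 CPM in HFD knockout-labelled livers against 6.26 to 13.3 CPM in HFD controls. Hepatocyte markers summed to 126717 to 188490 CPM over all groups, and 6 of 7 erythroid markers, the haemoglobin genes, were listed at 0 in every library. The hepatocyte marker Ass1 was at only 0 to 1.17 CPM over all groups, and the cause was not tested.

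Levels per kilobase of exon spanned a wide range within each substrate class. Slc38a4, a sodium-coupled neutral amino acid carrier, had the highest level of the 154 members at 471 CPM per kilobase, and Slc7a2, a carrier of arginine and other cationic amino acids, followed at 248 CPM per kilobase. Slc25a5, an ADP/ATP carrier of the inner mitochondrial membrane, stood at 163 CPM per kilobase, and Slc25a23, a calcium-dependent carrier of ATP-magnesium and phosphate, at 71.4. The leading member was Slc31a1, the copper importer, among metal carriers (93.1 CPM per kilobase). Among sugar carriers it was Slc37a4, which moves glucose 6-phosphate into the endoplasmic reticulum (42.3 CPM per kilobase), and among vitamin, choline and lipid carriers Slc23a1, a sodium-coupled vitamin C carrier (39.7 CPM per kilobase). Slc26a1, a sulfate carrier, led the ion carriers at 37.7 CPM per kilobase, and Slc29a1, an equilibrative nucleoside carrier, led its class at 14.6. The median level was highest in the mitochondrial class, at 16.6 CPM per kilobase over 30 members, against 4.21 over 25 amino acid carriers. Of the class leaders named here, Slc23a1 and Slc29a1 passed the test in a knockout comparison described below.

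**Figure D1:**
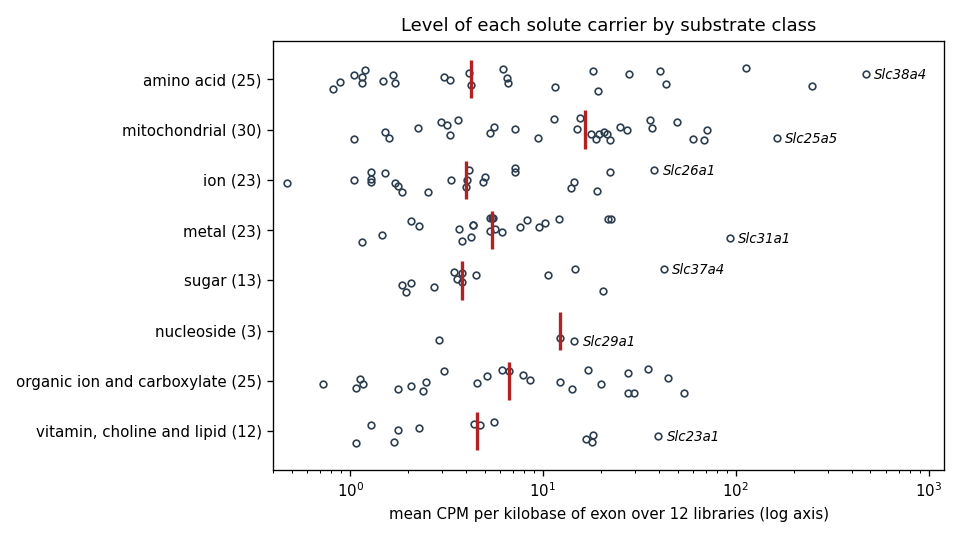
Mean level of each of the 154 solute carriers over the 12 libraries, in CPM per kilobase of exon on a log axis, by substrate class (number of members in brackets). Circles are genes, red bars are class medians, and the leading member is named in 7 of the 8 classes, with Slc38a4 highest at 471 CPM per kilobase.

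The first question of the design is which carriers differ between knockout-labelled and control livers. On standard diet 15 carriers passed an adjusted p of 0.05, 5 higher and 10 lower in knockout-labelled livers, which is 9.74% of the members against 4.38% of the 12015 genes tested (1.44% higher and 2.94% lower). On high-fat diet 10 passed, 5 higher and 5 lower, or 6.49% of the members against 2.7% of all genes tested (1.04% higher and 1.66% lower). Without the 10 members that rest on 1 group the counts were 14 of 144 on standard diet, 4 higher and 10 lower, and 9 of 144 on high-fat diet, 4 higher and 5 lower. All 154 members had passed the filter on low counts. The count on standard diet was 8 without SD control 3, and that on high-fat diet was 6 without HFD control 4 and 3 without HFD knockout 1. With the HFD libraries alone in the fit 3 of the 10 were called, Slc25a47, Slc30a10 and Slc22a26. The last is a member through its level in HFD knockout-labelled livers, so its call is a description only. The median log2 fold change over the members was -0.06 on both diets, against 0 and -0.01 over all genes tested. Groups did not overlap for 28.6% of the members on standard diet, against 22.6% of all genes, and for 25.3% on high-fat diet, against 22.2%. For the 135 members at the threshold in every group these shares were 30.4% on standard diet and 21.5% on high-fat diet. Both comparisons called 6 carriers, each in the same direction on the 2 diets, which is 40% of the standard diet calls and 60% of the high-fat diet calls. Over all genes tested, 1.36% were called on both diets in 1 direction, 30.99% of the standard diet calls and 50.2% of the high-fat diet calls. The knockout comparisons of the 2 diets had no library in common, though 1 estimate of the spread served both. A difference in liver RNA can come from fewer cells of a type or from less RNA per cell, and these cannot be told apart here.

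**Figure D2:**
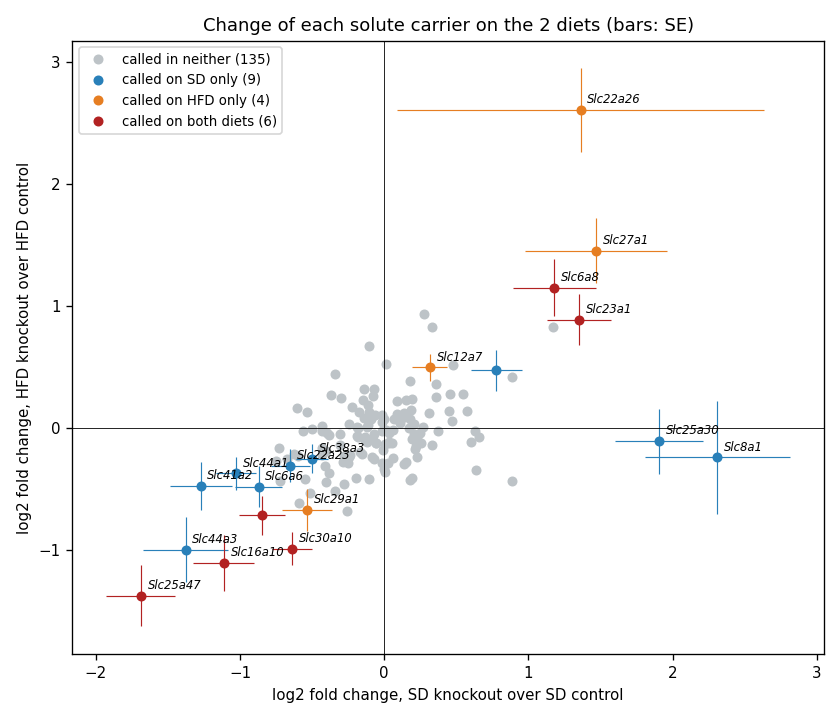
Log2 fold change of each of the 154 carriers in HFD knockout-labelled over HFD control livers (vertical) against that in SD knockout-labelled over SD control livers (horizontal). Bars on the 19 called carriers are standard errors, and colours mark the 6 called on both diets, the 9 on standard diet, the 4 on high-fat diet and the 135 in neither. Slc25a47 lies furthest into the lower left corner, while Slc8a1 and Slc25a30 lie far right near the horizontal axis.

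Among the 30 mitochondrial carriers, 1 was higher and 1 lower in SD knockout-labelled livers, and 1 was lower in HFD knockout-labelled livers, by edgeR. DESeq2 called 2 lower on high-fat diet, Slc25a47 and Slc25a42. The lower one on both diets was Slc25a47, a carrier family member made chiefly in liver. It had 83.3, 72.8 and 103 CPM in SD knockout-labelled livers, against 334, 216 and 288 CPM in SD controls (log2 fold change -1.69, SE 0.24, adjusted p = 0.000878, edgeR with Benjamini-Hochberg adjustment). On high-fat diet it had 149 and 72.4 CPM in knockout-labelled livers, against 234, 310.1, 335 and 266 CPM in controls (log2 fold change -1.37, SE 0.25, adjusted p = 0.00789). No knockout-labelled liver reached the level of any control on its diet. The 2 HFD knockout-labelled livers differed from each other, and the fold change was -1.97 without the first (adjusted p = 0.00301) and -0.94 without the second (adjusted p = 0.0792).

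The higher one on standard diet was Slc25a30, a mitochondrial carrier first described in kidney, which is a member through its level in SD knockout-labelled livers, so that its difference is a description. It had 13.3, 16.8 and 12.2 CPM in SD knockout-labelled livers against 2.73, 4.82 and 3.66 CPM in SD controls (log2 fold change 1.91). On high-fat diet it had 4.17 and 5.13 CPM in knockout-labelled livers and 6.72, 3.72, 4.46 and 5.07 CPM in controls (log2 fold change -0.11), and these groups overlapped. The summed level of the 30 mitochondrial carriers was 2584 to 2796 CPM in SD knockout-labelled livers against 2899 to 3127 CPM in SD controls, and 2738 to 2852 CPM in HFD knockout-labelled livers against 2967 to 3129.85 CPM in HFD controls. Without Slc25a47 the groups overlapped on both diets, at 2511 to 2713 CPM against 2683 to 2793 CPM, and at 2589 to 2779.8 CPM against 2704 to 2819.8 CPM. The abundant members Slc25a5 (log2 fold change 0.09, SE 0.10 on standard diet) and Slc25a23 (0.01, SE 0.10) did not pass the test in either knockout comparison.

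Amino acid carriers gave 4 calls on standard diet, 1 higher and 3 lower in knockout-labelled livers, and 2 on high-fat diet, 1 in each direction. Slc16a10, which carries aromatic amino acids and thyroid hormones, had 169.7, 141 and 123 CPM in SD knockout-labelled livers against 323, 263 and 350.4 CPM in SD controls (log2 fold change -1.11, SE 0.21, adjusted p = 0.00727). It had 82.7 and 123 CPM in HFD knockout-labelled livers against 163, 299.9, 189 and 235 CPM in HFD controls (log2 fold change -1.11, SE 0.23, adjusted p = 0.0151). The groups did not overlap on either diet, and the fall was of similar size on both. Slc6a8, the creatine carrier, was higher in knockout-labelled livers, at 10.7, 15.6 and 13.9 CPM against 5.86, 5.63 and 6.10 CPM in SD controls (log2 fold change 1.18, SE 0.29, adjusted p = 0.0285). On high-fat diet it had 14.6 and 10.3 CPM in knockout-labelled livers against 6.08, 4.34, 7.44 and 4.29 CPM in controls (log2 fold change 1.15, SE 0.23, adjusted p = 0.0141). These groups also did not overlap.

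Slc6a6, the taurine carrier, fell to 121, 103 and 94.7 CPM in SD knockout-labelled livers against 137, 210.2 and 234 CPM in SD controls (log2 fold change -0.87, SE 0.17, adjusted p = 0.00712). It had 117 and 130.00 CPM in HFD knockout-labelled livers and 159.9, 186, 159.6 and 186 CPM in HFD controls, and did not pass there (log2 fold change -0.48, adjusted p = 0.182). Slc38a3, a glutamine and histidine carrier, had 416, 439 and 437 CPM in SD knockout-labelled livers against 543, 613 and 669 CPM in SD controls (log2 fold change -0.50, SE 0.11, adjusted p = 0.0175), and 588 and 599.7 CPM against 639, 716, 799 and 678 CPM on high-fat diet (log2 fold change -0.25, adjusted p = 0.344). The more abundant Slc38a4 and Slc7a2 overlapped between knockout-labelled and control livers on both diets, with Slc38a4 at 2232, 2021 and 2006 CPM in SD knockout-labelled livers against 2472, 2027 and 2305 CPM in SD controls. Slc6a8 was not called on standard diet without replicates 1, 2 or 3 of the SD controls or replicates 2 or 3 of the SD knockouts (adjusted p = 0.0677 to 0.118), and Slc38a3 was not called without replicates 2 or 3 of the SD controls or replicates 1, 2 or 3 of the SD knockouts (adjusted p = 0.0503 to 0.101). On high-fat diet Slc16a10 was not called without replicate 1 of the HFD knockouts (adjusted p = 0.265) and Slc6a8 was not called without replicate 1 of the HFD knockouts (adjusted p = 0.268).

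Of the 23 ion carriers, 2 were higher in SD knockout-labelled livers and 1 was higher in HFD knockout-labelled livers, and 0 were called lower on either diet by edgeR or by DESeq2. At an unadjusted p under 0.05, which 17.6% of all genes met on standard diet and 14% on high-fat diet, 2 were lower on standard diet and 1 on high-fat diet. Slc8a1, a plasma membrane sodium-calcium exchanger, had 125, 114 and 205 CPM in SD knockout-labelled livers against 66.4, 9.65 and 14.95 CPM in SD controls (log2 fold change 2.31, SE 0.50, adjusted p = 0.0156). SD control 1 stood apart from the other 2 controls, and without it the log2 fold change was 3.57. The call was lost without replicates 2 or 3 of the SD controls or replicate 3 of the SD knockouts (adjusted p = 0.064 to 0.0997). On high-fat diet the groups overlapped, at 82.4 and 85.6 CPM in knockout-labelled livers and 137, 93.4, 116 and 49.9 CPM in controls (log2 fold change -0.24, SE 0.46). The potassium-chloride carrier Slc12a7 was called on high-fat diet, at 97.5 and 77.1 CPM in knockout-labelled livers against 61.98, 66.8, 60.7 and 58.1 CPM in controls (log2 fold change 0.50, SE 0.11, adjusted p = 0.0257), a call lost without replicates 3 or 4 of the HFD controls or replicate 1 of the HFD knockouts (adjusted p = 0.054 to 0.413) and when libraries were thinned to 1 depth. The sulfate carrier Slc26a1 and the phosphate carrier family member Slc17a2, the most abundant ion carriers per kilobase, did not pass on either diet.

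Beside these rises on standard diet, all 8 stellate cell and fibroblast markers summed to 443 to 519 CPM in SD knockout-labelled livers against 335 to 398 CPM in SD controls. Of these, Reln (126 to 156 CPM against 84.0 to 108 CPM) and Col1a2 (15.3 to 26.8 CPM against 7.03 to 12.8 CPM) did not overlap and the other 6 did. The 6 cholangiocyte markers summed to 65.0 to 197 CPM in SD knockout-labelled livers against 51.4 to 53.9 CPM in SD controls. Most of it came from Spp1 (51.7 to 189 CPM against 42.4 to 46.1 CPM). Epcam also did not overlap (2.40 to 3.13 CPM against 1.56 to 2.14 CPM), while Krt7, Krt19, Sox9 and Cftr did. On high-fat diet the stellate sums overlapped, at 386 to 465 CPM in knockout-labelled livers and 260.1 to 393 CPM in controls. Reln (110.5 to 114.8 CPM against 71.5 to 106.4 CPM) and Col1a2 (9.49 to 14.6 CPM against 2.60 to 7.90 CPM) again did not overlap there, and the other 6 did. The endothelial sums, at 218 to 226 CPM against 180.4 to 214 CPM, did not overlap on that diet. Of their markers, Stab2, Lyve1, Clec4g, Kdr and Tek overlapped, and Pecam1 was narrowly apart (17.631 to 21.4 CPM against 13.1 to 17.627 CPM). The hepatocyte sums did not overlap either, at 144523 to 188490 CPM in HFD knockout-labelled livers against 126717 to 131569 CPM in HFD controls. They were mostly Alb (99103 to 141831 CPM against 77075 to 84235 CPM). Ttr (10064 to 11559 CPM against 6263 to 7731 CPM) and Hnf4a (670.7 to 674.5 CPM against 606.0 to 663.3 CPM) were also higher without overlap. Apob was lower without overlap (19680.4 to 22497 CPM against 23405 to 24784 CPM), and Apoa1, Serpina1a, Cps1 and Ass1 overlapped. The part of these cells in any carrier's difference was not tested.

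Metal carriers gave 2 calls on standard diet and 1 on high-fat diet, all lower in knockout-labelled livers. That is 8.70% and 4.35% of the 23 members, against 4.38% and 2.7% of all genes tested. At an unadjusted p under 0.05, 4 were higher and 4 lower on standard diet, and 2 were higher and 3 lower on high-fat diet. Over all genes tested, 17.6% and 14% met that limit. Slc30a10, which exports manganese from cells, was lower on both diets. It had 24.3, 19.2 and 20.9 CPM in SD knockout-labelled livers against 33.98, 31.3 and 35.1 CPM in SD controls (log2 fold change -0.64, SE 0.14, adjusted p = 0.0161), and 13.2 and 14.8 CPM in HFD knockout-labelled livers against 28.1, 30.3, 27.4 and 25.998 CPM in HFD controls (log2 fold change -0.99, SE 0.14, adjusted p = 0.000984). Every knockout-labelled liver lay under every control of both diets. The standard diet call was lost without replicate 3 of the SD controls or replicates 2 or 3 of the SD knockouts (adjusted p = 0.0772 to 0.0831), and the high-fat diet call was lost when libraries were thinned to 1 depth, where the log2 fold change was -0.53 (adjusted p = 0.191). Slc41a2, a magnesium carrier family member, had 19.999, 37.2 and 25.1 CPM in SD knockout-labelled livers against 57.8, 59.9 and 78.7 CPM in SD controls (log2 fold change -1.27, SE 0.21, adjusted p = 0.00308). On high-fat diet it had 39.05 and 61.3 CPM in knockout-labelled livers and 70.9, 64.9, 69.1 and 75.4 CPM in controls (log2 fold change -0.48, adjusted p = 0.269). The copper importer Slc31a1 and the zinc, iron and manganese importer Slc39a14 did not pass, with log2 fold changes of 0.19 and 0.09 on standard diet and -0.09 and 0.09 on high-fat diet.

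Of the 13 sugar and nucleotide sugar carriers, 0 passed on either diet by edgeR or by DESeq2. Over all genes tested 4.38% passed on standard diet and 2.7% on high-fat diet by edgeR, so few calls could arise in a class of this size. At an unadjusted p under 0.05 there were 2 of the 13 on standard diet and 0 on high-fat diet, beside 17.6% and 14% of all genes tested. The smallest p on standard diet belonged to Slc35a1, which brings CMP-sialic acid into the Golgi, at 44.3, 42.4 and 34.8 CPM in SD knockout-labelled livers against 55.5, 52.2 and 55.9 CPM in SD controls (log2 fold change -0.43, SE 0.13, adjusted p = 0.069). On high-fat diet it belonged to Slc35a2, the Golgi carrier of UDP-galactose, at 7.64 and 8.82 CPM in knockout-labelled livers against 10.2, 11.05, 10.6 and 9.10 CPM in controls (log2 fold change -0.31, adjusted p = 0.468). Slc37a4 had 144, 119 and 135 CPM in SD knockout-labelled livers against 130.04, 115 and 108 CPM in SD controls, and these groups overlapped. Of the 3 nucleoside carriers, Slc29a1 was called on high-fat diet, at 50.02 and 38.5 CPM in knockout-labelled livers against 59.98, 90.6, 63.8 and 67.6 CPM in controls (log2 fold change -0.67, SE 0.17, adjusted p = 0.0466). On standard diet it had 47.7, 46.03 and 41.1 CPM in knockout-labelled livers against 74.98, 56.3 and 63.8 CPM in controls, again without overlap, but did not pass (log2 fold change -0.53, adjusted p = 0.101). Its high-fat diet call stood close to the threshold and was lost without replicates 2, 3 or 4 of the HFD controls or replicates 1 or 2 of the HFD knockouts (adjusted p = 0.0585 to 0.299) and when libraries were thinned to 1 depth. Slc43a3, a purine nucleobase carrier, did not pass on either diet.

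Carriers of organic ions and carboxylates gave 2 lower calls on standard diet, and 1 higher and 1 lower call on high-fat diet. Slc22a23, an organic ion carrier family member with no settled substrate, had 73.995, 86.1 and 84.6 CPM in SD knockout-labelled livers against 114, 119 and 149 CPM in SD controls (log2 fold change -0.65, SE 0.14, adjusted p = 0.0124), a call lost without replicate 3 of the SD controls or replicate 1 of the SD knockouts (adjusted p = 0.0514 to 0.0826).

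Slc22a26, an organic anion carrier family member of rodents, was the higher one on high-fat diet. It is a member through its level in HFD knockout-labelled livers, so its difference there is a description. It had 43.6 and 16.96 CPM in HFD knockout-labelled livers against 5.17, 6.33, 3.09 and 5.20 CPM in HFD controls (log2 fold change 2.60). HFD knockout 1 held more than its partner, and without it the log2 fold change was 1.78. On standard diet the gene was near 0, at 1.33, 1.20 and 0.348 CPM in knockout-labelled livers and 0, 0 and 0.916 CPM in controls, from 8 and 3 counts in all. The ratio in CPM was 2.65 with a 95% interval for counting error of 0.637 to 15.5.

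Among the 12 carriers of vitamins, choline and lipids, 1 was higher and 2 lower in SD knockout-labelled livers, and 2 were higher in HFD knockout-labelled livers. The class had the lowest median log2 fold change on both diets, at -0.55 and -0.23. With those that did not pass, 9 of its 12 members had a negative log2 fold change on standard diet, against 5925 of 12015 genes tested. Slc23a1, the vitamin C carrier, rose on both diets. It had 154, 146 and 149 CPM in SD knockout-labelled livers against 69.1, 53.5 and 54.02 CPM in SD controls (log2 fold change 1.35, SE 0.22, adjusted p = 0.00244). It had 220.4 and 221 CPM in HFD knockout-labelled livers against 182, 94.3, 109 and 90.5 CPM in HFD controls (log2 fold change 0.89, SE 0.21, adjusted p = 0.0302). The groups did not overlap on either diet, though HFD control 1 lay well above the other 3 controls. The high-fat diet call was lost without replicates 2, 3 or 4 of the HFD controls or replicates 1 or 2 of the HFD knockouts (adjusted p = 0.081 to 0.219).

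Both choline carrier family members called were lower. Slc44a1, a choline carrier of the plasma membrane and mitochondria, had 36.3, 31.2 and 23.7 CPM in SD knockout-labelled livers against 57.8, 63.9 and 64.4 CPM in SD controls (log2 fold change -1.03, SE 0.14, adjusted p = 0.000645), the smallest p of all members on that diet. On high-fat diet it had 25.7 and 25.8 CPM in knockout-labelled livers and 35.3, 31.9, 32.4 and 33.8 CPM in controls, without overlap, but did not pass (log2 fold change -0.37, adjusted p = 0.201). The HFD controls were themselves close to the SD knockout-labelled livers. Slc44a3 had 3.33, 5.20 and 7.31 CPM in SD knockout-labelled livers against 14.1, 14.1 and 13.1 CPM in SD controls (log2 fold change -1.38, SE 0.30, adjusted p = 0.0144), a call lost without replicate 3 of the SD controls or replicates 1 or 2 of the SD knockouts (adjusted p = 0.0527 to 0.065), and 4.59 and 4.46 CPM against 12.3, 7.20, 8.47 and 7.93 CPM on high-fat diet (log2 fold change -0.999, adjusted p = 0.0592). Slc27a1, a long-chain fatty acid carrier, was called on high-fat diet, at 23.1 and 16.5 CPM in knockout-labelled livers against 11.3, 6.33, 5.95 and 4.81 CPM in controls (log2 fold change 1.45, SE 0.27, adjusted p = 0.00844). On standard diet it had 6.00, 6.00 and 4.18 CPM in knockout-labelled livers against 2.73, 2.01 and 1.22 CPM in controls and a fold change of like size that did not pass (log2 fold change 1.47, SE 0.49, adjusted p = 0.115). The Slc27a1 call was lost without replicate 1 of the HFD knockouts (adjusted p = 0.175). The lysosomal carrier Slc46a3 was lower without overlap on both diets, with log2 fold changes of -0.51 and -0.54. It missed the threshold on each (adjusted p = 0.0637 and 0.0573 by edgeR). DESeq2 called both Slc46a3 and Slc44a3 lower on high-fat diet.

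**Figure D3:**
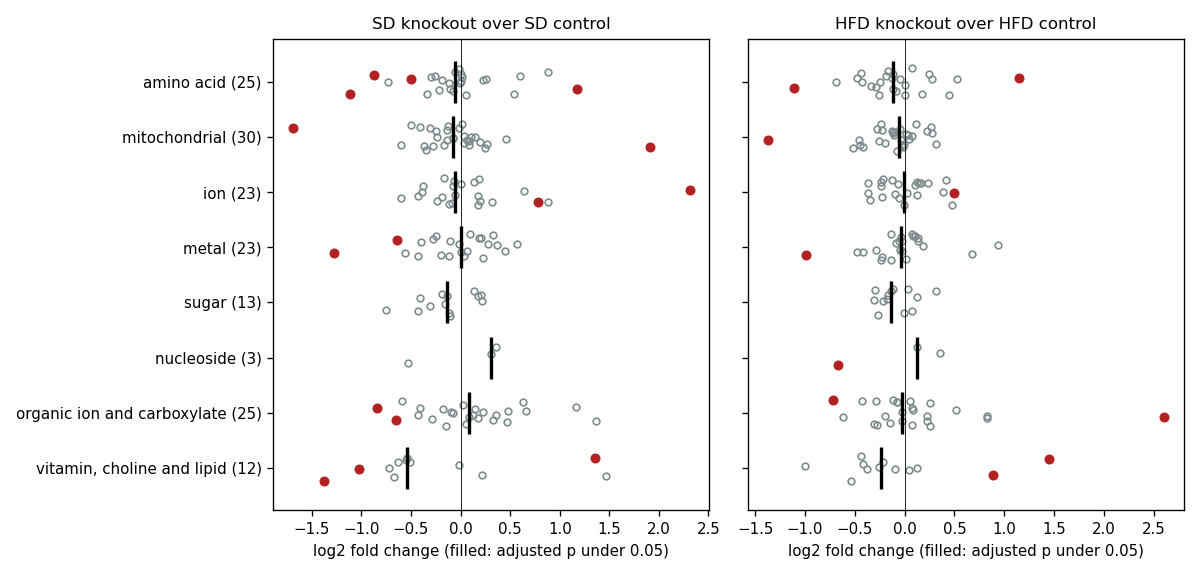
Log2 fold change of each carrier by substrate class (number of members in brackets), in SD knockout-labelled over SD control livers (left) and HFD knockout-labelled over HFD control livers (right). Filled red circles passed an adjusted p of 0.05, open circles did not, and black bars are class medians, the lowest of which belong to vitamin, choline and lipid carriers at -0.55 and -0.23.

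**Figure D4:**
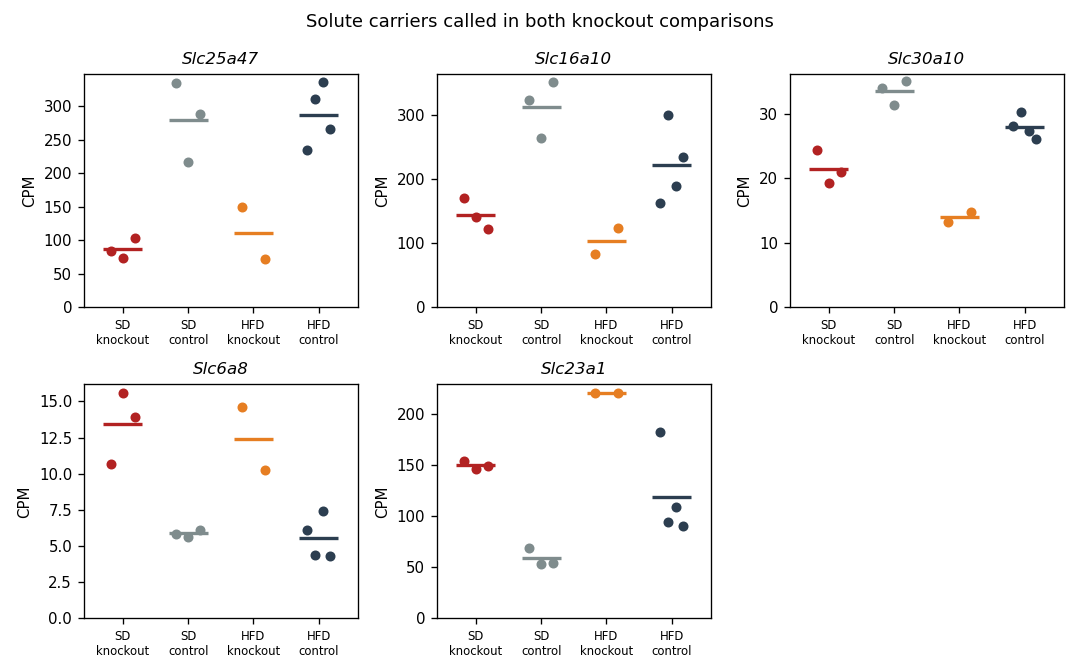
CPM in each library of Slc25a47, Slc16a10, Slc30a10, Slc6a8 and Slc23a1, called in both knockout comparisons, by group, with the mean as a bar and each vertical axis starting at 0. The first 3 were lower in knockout-labelled livers and the other two higher, with no overlap between knockout-labelled and control livers on either diet.

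Promoter windows of 300 bases, from 250 before to 50 after the start of a gene, were read from RefSeq (GRCm38.p6) for the 119 members listed there. They were searched on both strands for CAAGGNCA, the core of the site that LRH-1 is known to bind. The letters occurred in 6.71% of all 32851 windows and in 7.64% of 27025 genes with a window, against 12 of 119 members (10.1%). Of the 13 carriers called in a knockout comparison that had a window, 2 held a match, and of the 3 called on both diets that had one, 0 did. The windows of those 3 are shown since they belong to carriers that fell on both diets, followed by the 2 with a match, which were chosen after the match was seen and in which capitals mark it, read on the other strand.
Slc25a47 (chr12:108850879-108851178, plus strand): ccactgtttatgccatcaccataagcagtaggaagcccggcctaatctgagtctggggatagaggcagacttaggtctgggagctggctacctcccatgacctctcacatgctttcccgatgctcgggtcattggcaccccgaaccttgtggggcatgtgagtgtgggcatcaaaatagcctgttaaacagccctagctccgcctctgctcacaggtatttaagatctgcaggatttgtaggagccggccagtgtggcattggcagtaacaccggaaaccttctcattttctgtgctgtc
Slc16a10 (chr10:40142205-40142504, minus strand): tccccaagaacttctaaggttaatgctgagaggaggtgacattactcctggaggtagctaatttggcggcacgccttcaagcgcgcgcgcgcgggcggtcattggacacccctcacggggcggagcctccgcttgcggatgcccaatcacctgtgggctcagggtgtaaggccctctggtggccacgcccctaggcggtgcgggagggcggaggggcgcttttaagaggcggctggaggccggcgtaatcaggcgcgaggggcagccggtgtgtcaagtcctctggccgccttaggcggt
Slc30a10 (chr1:185454598-185454897, plus strand): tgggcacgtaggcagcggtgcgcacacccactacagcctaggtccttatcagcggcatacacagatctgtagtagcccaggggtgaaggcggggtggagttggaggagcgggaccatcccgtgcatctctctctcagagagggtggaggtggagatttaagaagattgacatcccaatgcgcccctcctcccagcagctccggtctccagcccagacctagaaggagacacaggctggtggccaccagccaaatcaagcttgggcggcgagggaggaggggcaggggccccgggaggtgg
Slc25a30 (chr14:75786988-75787287, minus strand): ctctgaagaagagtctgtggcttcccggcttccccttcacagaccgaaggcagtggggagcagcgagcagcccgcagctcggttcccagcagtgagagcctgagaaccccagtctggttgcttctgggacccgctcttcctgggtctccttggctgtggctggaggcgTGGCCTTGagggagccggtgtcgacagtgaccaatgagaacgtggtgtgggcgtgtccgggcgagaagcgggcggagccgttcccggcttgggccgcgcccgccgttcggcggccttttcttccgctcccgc
Slc29a1 (chr17:45592888-45593187, minus strand): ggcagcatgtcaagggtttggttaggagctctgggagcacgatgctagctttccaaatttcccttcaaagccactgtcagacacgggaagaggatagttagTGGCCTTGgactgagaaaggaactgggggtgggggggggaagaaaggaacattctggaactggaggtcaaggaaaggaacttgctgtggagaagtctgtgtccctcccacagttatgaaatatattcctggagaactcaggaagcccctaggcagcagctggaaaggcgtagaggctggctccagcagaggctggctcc

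The match in the Slc25a30 window belongs to the carrier that was higher in SD knockout-labelled livers, and that in the Slc29a1 window to the nucleoside carrier that fell on high-fat diet. A match describes these letters and no more, and binding was not measured here.

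The second question is whether the knockout effect differed between the diets, taken as the log2 fold change on high-fat diet minus that on standard diet. No carrier passed by edgeR, and 0 of the 12015 genes did, a background of 0%. At an unadjusted p under 0.05 there were 10 members and 911 genes, which is 7.58% of all genes tested, and DESeq2 called 1 member and 17 genes. The 1 member that DESeq2 called was Slc25a30, which also passed without a filter on low counts. Since its level in SD knockout-labelled livers made it a member, its difference of -2.02 is a description. Slc8a1 had a difference of -2.55 (SE 0.69, adjusted p = 0.408). It passed without SD control 1, with a difference of -3.80 (adjusted p = 0.0221), and without a filter on low counts (adjusted p = 0.0157). For Slc44a1 the difference was 0.65 (SE 0.19, adjusted p = 0.462) and for Slc41a2 0.80 (SE 0.29, adjusted p = 0.561), in both of which the fall was the smaller on high-fat diet. Of the carriers called on both diets, the differences were 0.31 for Slc25a47, 0.01 for Slc16a10, -0.35 for Slc30a10, -0.47 for Slc23a1 and -0.03 for Slc6a8. The ranges of 2 SE either side ran from -0.60 to 0.62 for Slc16a10 and from -1.08 to 0.15 for Slc23a1, so differences of up to about that size remain possible.

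The design also sets the diets against each other within each genotype. Here diet and sequencing cannot be told apart, since HFD libraries were deeper and ribosomal protein genes took 0.683% to 0.807% of counts in them against 0.137% to 0.183% in SD libraries. In controls 48 carriers passed, 31 higher and 17 lower on high-fat diet, or 31.2% of the members against 30.1% of all genes tested (16.5% higher and 13.6% lower), and without SD control 3 the count was 31. In knockout-labelled livers 45 passed, 29 higher and 16 lower, or 29.2% against 26.6% of all genes (14.9% higher and 11.7% lower). Without the 10 members that rest on 1 group the counts were 44 of 144 in controls, 28 higher and 16 lower. In knockout-labelled livers they were 41 of 144, 26 higher and 15 lower. The shares are near the background. The 2 diet comparisons share no libraries, and 26 carriers were called in both, 20 higher and 6 lower on high-fat diet, which is 54.2% of the calls in controls and 57.8% of those in knockout-labelled livers. Slc22a26 and Slc6a18, which rest on 1 group, are among those called higher in both. Over all genes tested 19% were called in both in 1 direction, 62.9% and 71.3% of the calls. No member was called in opposite directions.

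The carriers described next passed as higher on high-fat diet in both genotypes, and they were picked after their values were seen. Slc6a13, which carries taurine and GABA, had 164 and 145 CPM in HFD against 91.99, 98.5 and 99.3 CPM in SD knockout-labelled livers, and 168, 173, 159 and 174 CPM in HFD against 63.7, 93.6 and 85.5 CPM in SD controls (log2 fold change 1.06, SE 0.12, adjusted p = 5.99e-06). Its relative Slc6a12, the betaine carrier, had 68.2, 83.4, 89.8 and 70.8 CPM in HFD controls against 42.6, 45.8 and 39.7 CPM in SD controls (log2 fold change 0.87, SE 0.12, adjusted p = 7.27e-05). Neither overlapped between diets. Slc22a5, the carnitine importer, had 25.2 and 22.4 CPM in HFD knockout-labelled livers against 11.999, 9.21 and 8.71 CPM in SD knockout-labelled livers (log2 fold change 1.25, SE 0.20, adjusted p = 0.000239), and a log2 fold change of 0.91 in controls. Its transcript has a copy of 831 bases at 98.3% identity in Slc22a21. Slc13a3, a dicarboxylate carrier, had 30.3, 22.97, 20.3 and 17.9 CPM in HFD controls against 5.86, 10.05 and 8.55 CPM in SD controls (log2 fold change 1.49, SE 0.26, adjusted p = 0.000442), and Slc10a2, the sodium-coupled bile acid carrier known from ileum and bile ducts, 45.8, 42.3, 23.6 and 17.8 CPM against 14.1, 6.03 and 13.7 CPM (log2 fold change 1.51, SE 0.34, adjusted p = 0.00353). In both genes the libraries of the diets did not overlap in either genotype.

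Slc25a5 had 371 and 392 CPM in HFD knockout-labelled livers against 208, 184 and 195 CPM in SD knockout-labelled livers (log2 fold change 0.96, SE 0.11, adjusted p = 8.61e-06), and 348, 324, 302 and 336 CPM in HFD controls against 193, 193 and 168 CPM in SD controls (log2 fold change 0.83, SE 0.09, adjusted p = 7.88e-06). It has 7 pseudogene copies of at least 200 bases at 90% identity, so its counts are uncertain, as are those of the zinc carrier Slc39a1 (log2 fold change 0.97 in controls and 1.33 in knockout-labelled livers) and of Slc35a4 (0.68 and 0.86), each with 1. Other mitochondrial carriers without such a copy were also higher, among them Slc25a23 at 0.52 and 0.48, and Slc25a16, linked to coenzyme A, at 0.70 and 0.73. The fatty acid carrier Slc27a1 had log2 fold changes of 1.89 in controls and 1.87 in knockout-labelled livers.

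Lower on high-fat diet in both genotypes was Slc25a46, a protein of the outer mitochondrial membrane, at 151, 158, 163 and 154 CPM in HFD controls against 278, 244 and 264 CPM in SD controls (log2 fold change -0.74, SE 0.10, adjusted p = 2.83e-05) and 124 and 148 CPM against 254, 231 and 214 CPM in knockout-labelled livers (log2 fold change -0.78, SE 0.12, adjusted p = 0.000163). The neutral amino acid carrier Slc38a2, chosen after its values were seen, had 279, 281, 338 and 255 CPM in HFD controls against 447, 426 and 441 CPM in SD controls (log2 fold change -0.60, SE 0.12, adjusted p = 0.00166). Neither gene overlapped between diets. The other 4 were Slc25a3, the mitochondrial phosphate carrier, Slc25a17, which is peroxisomal, the bicarbonate carrier Slc4a7, and Slc22a30, which shares 1485 bases at 98.9% identity with Slc22a28. Slc44a1 fell in controls, at 35.3, 31.9, 32.4 and 33.8 CPM in HFD against 57.8, 63.9 and 64.4 CPM in SD (log2 fold change -0.90, SE 0.12, adjusted p = 4.16e-05), and did not pass in knockout-labelled livers (log2 fold change -0.24, adjusted p = 0.27). Slc25a30 had log2 fold changes of -1.58 in knockout-labelled livers and 0.43 in controls, again as a description. These 2 comparisons reuse the SD libraries of the knockout comparison above.

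Slc6a18, a neutral amino acid carrier known from kidney, and Slc7a14, of the cationic amino acid carrier family, had 0 counts in every SD library. Both reached the threshold on mean level through the HFD groups, so their differences between diets are a description. Slc6a18 had 7.64 and 9.60 CPM in HFD knockout-labelled livers and 12.1, 11.7, 10.1 and 9.75 CPM in HFD controls. Slc7a14 had 14.6 and 18.4 CPM in HFD knockout-labelled livers and 17.3, 12.2, 15.7 and 17.7 CPM in HFD controls. Against the limit of 3 counts over a group, which is 0.358 CPM in SD knockout-labelled livers and 0.360 CPM in SD controls, Slc6a18 was at least 24.3-fold higher on high-fat diet in knockout-labelled livers and 30.5-fold in controls, and Slc7a14 at least 46.6-fold and 43.9-fold. Both transcripts share short stretches with unrelated genes, with 2 copies for Slc6a18 and 8 for Slc7a14. Slc22a26 had 175 counts in HFD controls against 3 in SD controls, a ratio of 13.7 in CPM with a 95% interval for counting error of 4.60 to 66.97. Outside the members, the mitochondrial pyruvate carrier subunit Mpc1 had 114, 112, 87.6 and 112 CPM in HFD controls against 3.12, 0.804 and 1.53 CPM in SD controls. Whether the libraries of both diets were counted with 1 annotation is not given in the sources used here, and for genes at or near 0 in every SD library a difference in counting and a difference in level cannot be told apart.

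**Figure D5:**
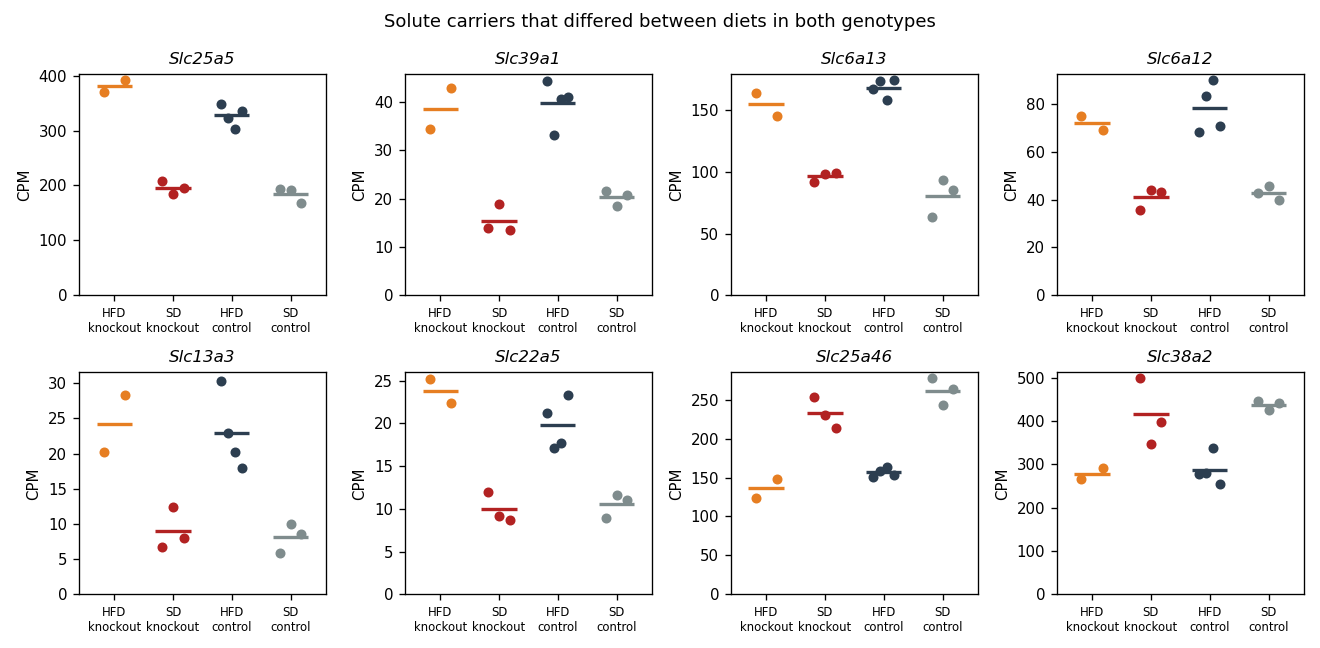
CPM in each library of 8 carriers that differed between diets in both genotypes, with HFD to the left of SD within each genotype, the mean as a bar and each vertical axis starting at 0. Slc25a46 and Slc38a2 were lower on high-fat diet and the other 6 higher, with no overlap between diets within a genotype.

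Of the 154 members, 48 had a copy elsewhere of at least 200 bases at 90% identity in GENCODE transcripts, so reads could be split between genes. Among the carriers called in a knockout comparison these included Slc22a26, with a pseudogene copy of 1275 bases at 92.6% identity, Slc8a1, Slc27a1, Slc23a1, whose copies are short, and Slc30a10. Slc30a10 overlaps the antisense gene Gm2061 over 533 bases, and Slc8a1 has 304 bases of overlap on the other strand. Slc29a1, Slc44a1, Slc44a3 and Slc6a6 also overlap a gene on the other strand. Whether the counting used strand is not given in the sources used here, and reads of such pairs cannot be told apart. Slc25a47, Slc16a10 and Slc6a8 had no copy and no overlap on the other strand.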

How the data were processed

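Liver RNA was measured by RNA sequencing in 12 libraries, 1 per sample. Per the labels' protocols, RNA was taken with Trizol from frozen livers and libraries were made with the Nugen Ovation RNA-Seq System V2. The submitters' processing notes list TopHat2 2.1.0 beside HTSeq, DESeq2 1.14.1 and the build mm9, with no order. The files deposited by the authors hold raw whole-number counts for each gene symbol. How reads with several matches were counted is not given in the sources used here, and that bears on carriers with near-identical copies. Samples were grouped by title and diet.

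The test was edgeR's quasi-likelihood test (edgeR 4.0.16 and limma 3.58.1 under R 4.3.3) after TMM normalization and filterByExpr at its minimum count of 10, with 4 group means and 1 spread over all 12 libraries. Tests were two-sided, with Benjamini-Hochberg adjustment over 12015 genes and calls at an adjusted p under 0.05. CPM uses the normalized library sizes, SE is derived from the test statistic, and the limit for 0 counts is 3 counts over a group, which covers counting error only. Exon lengths and copies (blastn 2.17.0, at least 200 bases at 90% identity) came from GENCODE transcripts of GRCm38, and promoter windows from RefSeq. As the files use mm9, no coordinates but those of the windows are given. The procedure was tested on simulated data. Named are, apart from a few carriers that are not reported here, all that passed a knockout comparison, up to 4 per class and diet comparison with the largest change and no overlap, and per class the 2 highest per kilobase and the smallest p. Of those named for diet, the ones described were picked after their values were seen. Members, classes and marker lists were chosen with earlier results of these data known. The alternatives tried comprised RLE normalization, DESeq2 1.42.0, no filter, only the groups compared, thinning to the smallest library, the replicate number as a block and each library left out, and, added after the data were seen, thinning with the tested genes held fixed. Without 1 HFD knockout, the lone one is assumed to vary like the other groups.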

Additional observations from a re-analysis of the deposited data

Results flagged for a closer look

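Of 65 named carriers examined in the 4 HFD controls, 1 held a library far from the others, and chance alone marks about 1 in 20 such groups. Slc30a7, which moves zinc into the Golgi, had 38.5 CPM in HFD control 4, against 42.95 to 43.7 CPM in the other 3, a gap of 0.85 of the range. The gene was not called between HFD knockout-labelled and control livers (log2 fold change -0.14, SE 0.11, adjusted p = 0.647 by edgeR).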

How the results depend on the processing

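The numbers of carriers called stayed within 1.5 times the reported count in 62 of 70 alternatives, and no result reversed direction. For SD knockout-labelled against SD control livers, with 15 called, the alternatives other than leaving out a library gave 15 to 21, and leaving out each library gave 8 to 16. For HFD knockout-labelled against HFD control livers, with 10 called, the count was 3 with only the groups compared and at most 14 otherwise, and 3 to 15 with a library left out. The diets gave 38 to 48 in controls (31 to 49 with a library left out) and 39 to 49 in knockout-labelled livers (30 to 43). The test of the knockout effect on high-fat against standard diet, with 0 called, gave 1 by DESeq2, 2 without a filter and 0 to 1 with a library left out. Except where fewer libraries or other genes enter by construction, the cause was not tested. With the replicate number as a block the counts were 16, 8, 45, 42 and 0 in the order above, but same-numbered libraries correlated at -0.038 to 0.121 in their deviations from the group means, so the numbers were not taken to pair them. Of the named calls, 7 of 14 on standard diet and 0 of 9 on high-fat diet held under every alternative, leaving out Slc25a30 and Slc22a26, which are members through the group in which they were high. Depth limits low carriers on standard diet, where 3 counts in 1 library amount to 0.916 to 1.21 CPM, and 2 HFD knockout-labelled libraries limit that comparison.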

Other observations

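Carriers and channels outside the 154 members also differed between knockout-labelled and control livers. They were listed by name and not by a rule, so the shares given here hold for this list only. Of 34 such genes tested, 3 were higher and 2 lower in SD knockout-labelled livers, or 14.7% against 4.38% of all genes tested. In HFD knockout-labelled livers 4 were higher and 2 lower, or 17.6% against 2.7% of all genes tested. Of the 2 lower ones, 1 was a gene under 5 CPM in every library and at 0 CPM in both HFD knockout-labelled livers. Slco1a4, an organic anion carrier of the blood-facing membrane, had 316, 235 and 189 CPM in SD knockout-labelled livers against 133, 95.3 and 107 CPM in SD controls (log2 fold change 1.144, SE 0.27, adjusted p = 0.0237, edgeR), and 198 and 174 CPM against 132, 75.97, 57.5 and 60.8 CPM on high-fat diet (log2 fold change 1.18, SE 0.26, adjusted p = 0.0235). The groups did not overlap on either diet. The prostaglandin carrier Slco2a1 was also higher on both, with log2 fold changes of 0.65 on standard diet and 0.84 on high-fat diet, as was Sfxn1, a mitochondrial serine carrier, with 0.55 and 0.75. Slco1a1 was lower on high-fat diet, at 154 and 236 CPM in knockout-labelled livers against 288, 369.6, 467 and 416 CPM in controls (log2 fold change -0.98, SE 0.19, adjusted p = 0.0124). Aqp9, the glycerol channel, and Mpc2, a subunit of the mitochondrial pyruvate carrier, were lower on standard diet, with log2 fold changes of -0.52 and -0.71.

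Of the 7 carriers that the rule leaves out, Slc10a1, the sodium-coupled bile acid importer, was lower on both diets. It had 379, 352 and 353 CPM in SD knockout-labelled livers against 812, 819.9 and 698 CPM in SD controls (log2 fold change -1.10, SE 0.20, adjusted p = 0.00428, edgeR), and 166 and 159 CPM in HFD knockout-labelled livers against 435, 779.95, 923 and 794 CPM in HFD controls (log2 fold change -2.17, SE 0.23, adjusted p = 0.000133). Slc1a2, a glutamate carrier, was lower on both, with log2 fold changes of -0.83 and -0.81. Slc27a5, a bile acid and fatty acid coenzyme A ligase, was lower on standard diet, with a log2 fold change of -0.57.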
